A study of Capra hircus with 18 samples.

Results

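Genes of neutrophil granules and of enzymes on the leukocyte surface, the 8 named S100A8, S100A12, LTF, PGLYRP1, ALPL, MMP25, MGAM and ACP5, were followed in the blood of goats that had been moved by road. They were taken by name, and all 8 stood among the 1247 genes of the 180 min table, while 1 of them, ACP5, also stood among the 430 genes of the 30 min table. The animals were uncastrated male Spanish goats, 8 months old, kept without feed overnight. Control goats stayed in pens (n = 7), and the others travelled in a livestock trailer for 30 min, about 50 km (n = 4), or for 180 min, about 200 km (n = 7). Each goat gave 1 RNA-seq library of whole blood, and the labels do not say on which of the trial days a goat was handled.

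Neutrophils carry proteins made ahead of use in several kinds of granule, and they release or expose them when they meet microbes. S100A8 and S100A12 are calcium-binding proteins of the neutrophil cytosol, lactoferrin (LTF) and the peptidoglycan-binding protein PGLYRP1 lie in secondary granules, and tissue-nonspecific alkaline phosphatase (ALPL) and the membrane-anchored protease MMP25 are found on secretory vesicles, granules and the cell surface. In ruminants and other mammals, blood neutrophil numbers can rise within hours of stress or glucocorticoid exposure. In whole blood, more neutrophils and more RNA of these genes per neutrophil cannot be told apart.

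Both tables hold only genes that had an unadjusted p under 0.05 in the authors' own comparison of the same goats. The tests given here are therefore no independent evidence that a gene differs, and a gene outside a table has no value here. At 180 min, limma on log2(normalized count + 1) at p under 0.05 before adjustment called 778 of 1247 genes (62.4%), 459 of them higher (36.8%) and 319 lower (25.6%). With each goat centred on the median deviation of the listed genes from their own means, the split was 253 higher and 440 lower. With edgeR and TMM it was 245 higher and 480 lower. That median deviation differed between the groups by 0.26 on the log2 scale at 180 min and by -0.61 at 30 min. The median of the single genes' differences was 0.68 and -0.92. The effective library size implied by the FPKM was 10443023 to 39473244 reads in control goats, 13992574 to 22855051 at 30 min and 11290309 to 34125715 at 180 min.

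After 180 min, limma called 7 of the 8 genes, 6 of them higher (S100A8, S100A12, LTF, PGLYRP1, ALPL and MMP25) and 1 lower (ACP5), and MGAM did not pass. With the p adjusted over all listed genes, 5 of the 8 passed 0.05 (S100A12, LTF, PGLYRP1, ALPL and MMP25), against 23.7% of all listed genes. In 0 of the 8 genes did the groups stand fully apart, as they did in 38 listed genes (3.05%). The median log2 difference was 1.95 over the 8 genes and 0.68 over all listed genes. The reads of the 8 genes together made up 0.0309 to 0.243% of a control library, with a median of 0.106%, and 0.134 to 0.859% of a 180 min library, with a median of 0.259%.

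**Figure D1:**
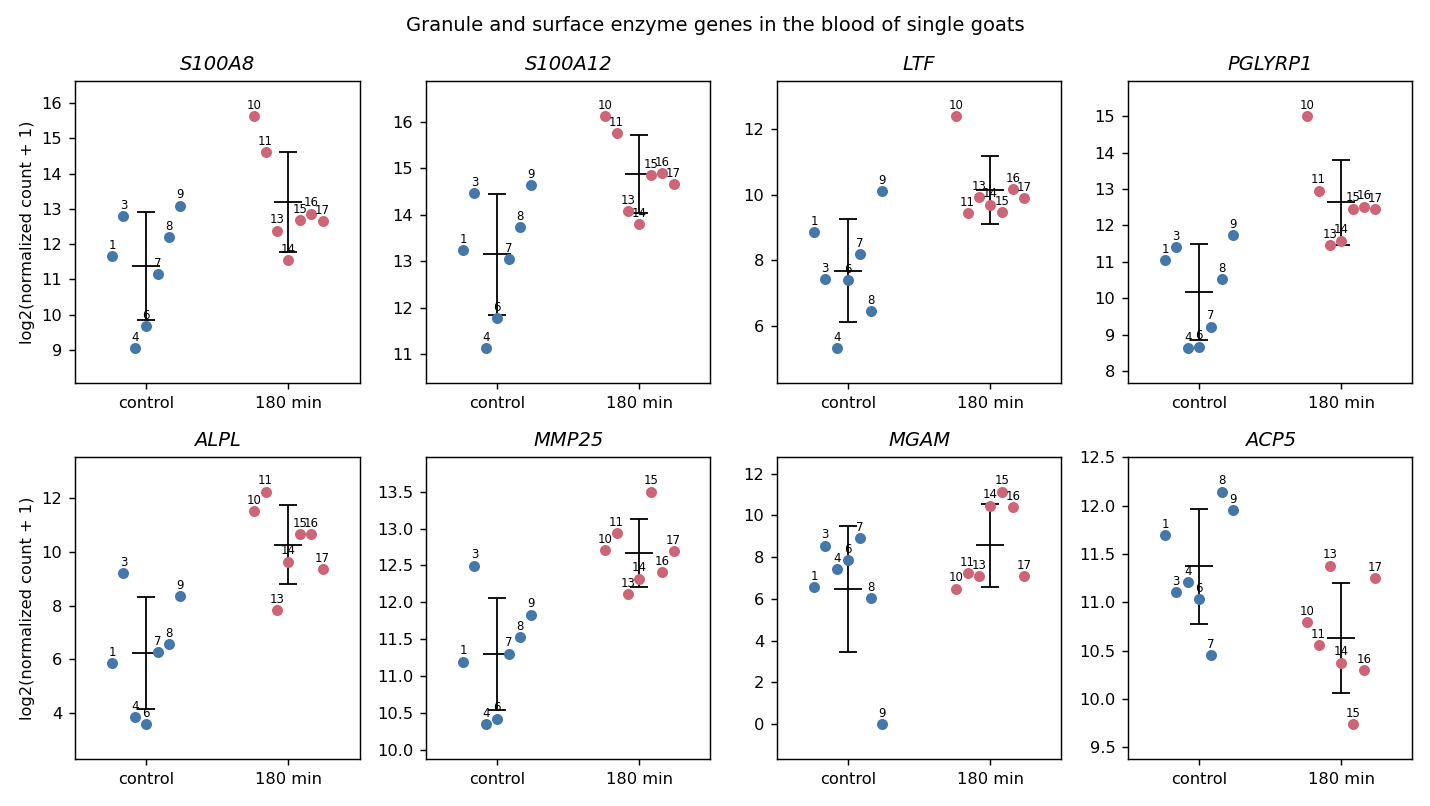
Normalized counts of the 8 genes in each control goat (blue, n = 7) and each goat transported for 180 min (red, n = 7), on a scale of log2(normalized count + 1), with the goat's number above its point and the group mean ± SD in black. S100A12, LTF, PGLYRP1, ALPL and MMP25 lie above the control median in 7 of 7 transported goats, MGAM in 3 of 7, and no gene separates the groups fully.

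The genes span a wide range of RNA levels. Per length, S100A12 was the most abundant of the 8 in every goat of both groups, with a median of 1726 FPKM in control goats and 4865 FPKM at 180 min. PGLYRP1 followed with medians of 126 and 486 FPKM. S100A8 and MMP25 did not differ in order beyond their spread, at control medians of 76.3 and 56.8 FPKM, with S100A8 the higher in 4 of 7 control goats, and at 160 and 162 FPKM after 180 min, with MMP25 the higher in 3 of 7. ACP5 had a median of 21.8 FPKM in control goats and LTF, MGAM and ALPL had 3.28, 1.37 and 1.36 FPKM, with no firm order between ALPL and MGAM. At 180 min the lower part of the order was ALPL (29.1 FPKM), LTF (18.8), ACP5 (15.6) and MGAM (1.44), and the ranges of neighbouring genes overlapped throughout. The gene lengths behind these FPKM run from 279 bases (S100A12) to 5466 bases (MGAM), and those of 5 genes are multiples of 3, so order across genes also depends on how fully each gene model is drawn.

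S100A8 and S100A12 are neighbours on chromosome 3, both on the minus strand. The file places S100A12 at 103073976 to 103074689 and S100A8 at 103093034 to 103095285, with 18344 bases between them and no other listed gene there. The genome build of these positions and of those that follow is not given in the sources used here. S100A9, the usual binding partner of S100A8, is in neither table under that name.

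S100A8 ranged from 525 normalized counts (goat 4) through a median of 3220 to 8752 (goat 9) in control goats. At 180 min it ranged from 2977 (goat 14) through 6561 to 51063 (goat 10). Goats 10 and 11 stood above every control goat, and the other transported goats lay within the control range, 4 of those 5 above its median. The group means were 3907 ± 3119 and 14980 ± 17511 (SD, n = 7 each), and the log2 difference was 1.83 (SE 0.74), with a limma p of 0.0265 (adjusted p = 0.0644) and an exact permutation p of 0.0425. The limma call rested on few animals. It was lost without goat 10 (log2 difference 1.42), without goat 11 (1.59) and without control goat 4 (1.44) or 6 (1.54).

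S100A12, which signals through the receptor RAGE, ranged from 2227 (goat 4) through 9668 to 25401 (goat 9) normalized counts in control goats. After 180 min it ran from 14302 (goat 14) through 29451 to 71659 (goat 10). All 7 transported goats were above the control median and 5 of 7 were above the highest control goat. The means were 12222 ± 8970 and 34906 ± 20941 (SD, n = 7 each), a log2 difference of 1.74 (SE 0.56), with a limma p of 0.00767 (adjusted p = 0.0470) and an exact permutation p of 0.00991.

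The pair ranked the goats of each group in the same order. Across control goats r was 0.997 and rho was 1.00, and r was 0.987 without goats 4 and 6. At 180 min r was 0.967 and rho was 1.00, and r was 0.913 without goats 10 and 11. Both had an exact permutation p adjusted over 56 correlations of 0.00556 (n = 7 goats each). The ratio of S100A12 to S100A8 normalized counts was 2.90 to 4.33 in control goats. It was 1.40 in goat 10 and 2.21 in goat 11, below all control goats, and 3.25 to 4.80 in the other transported goats.

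LTF encodes lactoferrin, the iron-binding protein of secondary granules and of milk (chromosome 22, 52977070 to 53007570, plus strand). Control goats ranged from 39.1 (goat 4) through 172 to 1093 (goat 9) normalized counts. Transported goats ranged from 686 (goat 11) through 947 to 5362 (goat 10). Goat 9 alone among control goats reached the level of the transported ones, all 7 of which exceeded the other 6 control goats. The means were 330 ± 364 and 1521 ± 1701 (SD, n = 7 each), with a log2 difference of 2.46 (SE 0.67), a limma p of 0.00232 (adjusted p = 0.0353) and an exact permutation p of 0.00408. Apart from goat 10, the transported goats lay between 686 and 1147 normalized counts.

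PGLYRP1 binds bacterial cell wall peptidoglycan (chromosome 18, 54562264 to 54566278, minus strand). Its normalized counts ran from 393 (goat 4) through 1481 to 3414 (goat 9) in control goats. At 180 min they ran from 2807 (goat 13) through 5647 to 32974 (goat 10). All transported goats were above the control median, and 5 of 7 were above goat 9. The means were 1589 ± 1205 and 9129 ± 10662 (SD, n = 7 each), and the log2 difference was 2.46 (SE 0.63), with a limma p of 0.00156 (adjusted p = 0.0323) and an exact permutation p of 0.00233.

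ALPL, a phosphatase held to the outer membrane by a lipid anchor (chromosome 2, 4757151 to 4778460, plus strand), had the largest log2 difference of the 8 genes. Control goats ranged from 11.1 (goat 6) through 77.0 to 586 (goat 3) normalized counts. Transported goats ranged from 226 (goat 13) through 1601 to 4837 (goat 11). Goat 13 was the one transported goat inside the control range, and control goats 3 and 9 were the ones above it. The means were 166 ± 214 and 1805 ± 1597 (SD, n = 7 each), with a log2 difference of 4.02 (SE 0.90), a limma p of 0.00047 (adjusted p = 0.0295) and an exact permutation p of 0.00291.

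MMP25 is a membrane-type matrix metalloproteinase also known as leukolysin (chromosome 25, 2354616 to 2365073, plus strand). Relative to its mean, it had the least spread among transported goats of the 6 that rose (SD 35.1% of the mean). It ran from 1303 (goat 4) through 2530 to 5784 (goat 3) normalized counts in control goats. It ran from 4438 (goat 13) through 6634 to 11603 (goat 15) at 180 min. Goat 3 was the only control goat above any transported goat. The means were 2845 ± 1538 and 6832 ± 2396 (SD, n = 7 each), a log2 difference of 1.37 (SE 0.35), with a limma p of 0.00144 (adjusted p = 0.0316) and an exact permutation p of 0.00233.

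MGAM, maltase-glucoamylase, is a starch-digesting enzyme of the gut brush border whose RNA is also found in granulocytes (chromosome 4, 15115209 to 15197810, minus strand). Its control values ran from 0 (goat 9, where 3 reads would be 2.79 normalized counts) through 171 to 484 (goat 7). The 180 min goats formed separate sets, with goats 14, 15 and 16 at 1421, 2264 and 1342 normalized counts and the other 4 at 89.0 to 151. The lower set lay inside the control range, the upper set lay above all of it, and the ratio of the group medians was 0.885. The means were 203 ± 174 and 791 ± 878 (SD, n = 7 each), with a log2 difference of 2.08 (SE 1.26) that limma did not call (p = 0.121, adjusted p = 0.139; exact permutation p = 0.147). DESeq2 called it higher (log2 difference 1.96), and without control goat 9 the limma value was 1.00 and not called.

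ACP5, tartrate-resistant acid phosphatase, is best known from osteoclasts and macrophages rather than from neutrophil granules (chromosome 7, 95771028 to 95777052, minus strand), and it was the one gene of the 8 that fell at 180 min. Control goats ranged from 1403 (goat 7) through 2358 to 4527 (goat 8) normalized counts. The 180 min goats ranged from 854 (goat 15) through 1504 to 2662 (goat 13). Control goats 1, 8 and 9 stood above all transported goats, and 5 of 7 transported goats lay below the control median. The means were 2838 ± 1126 and 1688 ± 653 (SD, n = 7 each), with a log2 difference of -0.74 (SE 0.33), a limma p of 0.0398 (adjusted p = 0.0734) and an exact permutation p of 0.0379. The call was lost with effective library sizes in place of the size factors (log2 difference -0.69) and without any one of goats 11, 14, 15 and 16 or control goats 1, 8 and 9, where the log2 difference was -0.73 to -0.60.

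**Figure D2:**
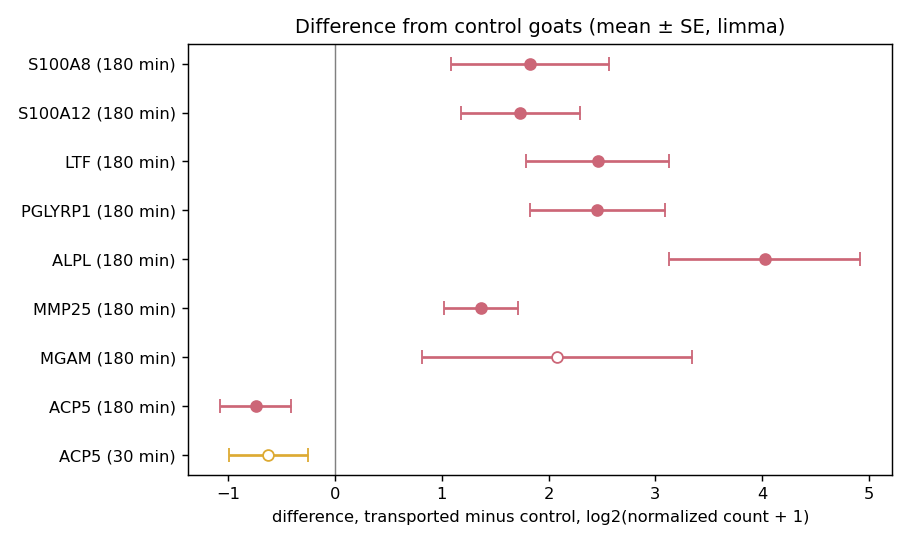
Difference of transported from control goats in log2(normalized count + 1) for each gene, as the limma estimate ± SE; red marks 180 min (n = 7 against 7) and yellow 30 min (n = 4 against 7), and filled points are called at an unadjusted p under 0.05. ALPL has the largest estimate, 4.02, MGAM the widest SE, 1.26, and ACP5 lies below 0 at both times.

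At 30 min, only ACP5 of the 8 genes is listed, so the other 7 were not analysed there. In that table its normalized counts, which rest on other size factors, were 1627, 1413, 1914 and 1285 in goats 21, 22, 24 and 27, against 1183 to 4365 in the control goats. The 4 transported goats lay close together and within the control range. The means were 1560 ± 275 (SD, n = 4) and 2598 ± 1161 (SD, n = 7), and the log2 difference of -0.62 (SE 0.37) was not called by limma (p = 0.120, adjusted p = 0.145; exact permutation p = 0.109), while 198 of the 430 listed genes were called (46.0%) and 35 had groups that stood fully apart (8.14%). The value was -0.74 and called with edgeR and with DESeq2 on the deposited size factors, and -0.55 and not called with edgeR and TMM. It was -0.012 and not called once each goat was centred on the median deviation of the listed genes. Of the listed genes, 22 were then called lower against 105 before.

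On 1 scale for both transport times, ACP5 stood at 85.6 ± 15.9 RPM (reads scaled to the effective library) at 30 min (SD, n = 4) and at 84.7 ± 37.2 at 180 min (SD, n = 7). The log2 difference, 180 min minus 30 min, was -0.12 (SE 0.34), with a 95% confidence interval of -0.89 to 0.65 and an exact permutation p of 0.752. A difference of that width in either direction is not resolved with these numbers of goats. Both comparisons with control use the same 7 control goats.

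**Figure D3:**
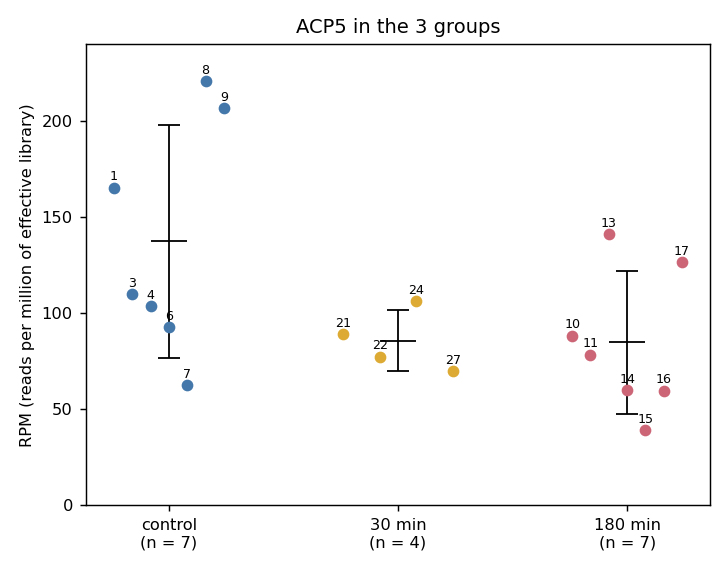
ACP5 in each goat in RPM of the effective library, with goat numbers and the group mean ± SD, for control (n = 7), 30 min (n = 4) and 180 min (n = 7) goats. The 30 min goats average 85.6 and the 180 min goats 84.7, and control goats 1, 8 and 9 stand above all transported goats.

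How far the genes moved together was then examined among goats of the same treatment, where the difference between groups plays no part. Over all 28 pairs of the 8 genes the median r was 0.55 in control goats, with 21 pairs positive, and 0.24 at 180 min, with 18 positive. In control goats the 7 pairs with MGAM were all negative (median r -0.49), with rho from -0.93 to -0.11. Control goat 9 had no MGAM read. When 2 goats were left out of each pair, 1 of the 7 turned positive. This was LTF with MGAM, at r of -0.59, and 0.23 without goats 4 and 9. The 7 pairs with ACP5 had a median r of 0.25 in control goats, and of -0.10 at 180 min. The 15 pairs of the 6 genes that rose had a median r of 0.92 in control goats (0.43 to 1.00), and in 10 of the 15 the exact permutation p adjusted over 56 correlations was under 0.05 (n = 7 goats). All pairs of listed genes had a median r of 0.045 in the same goats, and pairs of listed genes called higher one of 0.17. At 180 min the 15 pairs had a median r of 0.67 (-0.14 to 0.97), 3 of them with an adjusted p under 0.05, against 0.013 over all listed pairs and 0.34 over pairs called higher. Each pair was also taken without 2 goats, those farthest from the median of 1 of its genes, so the goats left out differed between pairs. The median r of the 15 pairs was then 0.77 in control goats and 0.39 at 180 min. The difference between the groups in r was not tested.

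The 3 pairs among S100A8, S100A12 and PGLYRP1 passed in both groups. PGLYRP1 had an r of 0.937 with S100A8 and 0.921 with S100A12 in control goats, and 0.918 and 0.911 at 180 min, each with rho of 0.964 and an exact permutation p adjusted to 0.0156 to 0.0159 (n = 7). In control goats these were 0.866 and 0.808 without goats 4 and 6. At 180 min they were 0.765 without goats 10 and 11, and 0.921 without goats 10 and 14. ALPL and MMP25 had an r of 0.986 in control goats (rho 0.964; exact permutation p adjusted to 0.00741, n = 7; r = 0.976 without goats 3 and 6). At 180 min that r was 0.58 (rho 0.64; exact permutation p adjusted to 0.348, n = 7; r = 0.27 without goats 11 and 13). LTF stood further from the rest, with r of 0.43 to 0.63 to the other 5 in control goats and none with an adjusted exact permutation p under 0.05 in either group (n = 7). Its r of 0.83 with PGLYRP1 at 180 min was 0.09 without the 2 farthest goats, 10 and 11 (rho 0.14 over all 7). Goat 10 had the most of both genes. Goat 11 had the least LTF (686 normalized counts) but the second highest PGLYRP1 (7948), so it went against a positive r.

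**Figure D4:**
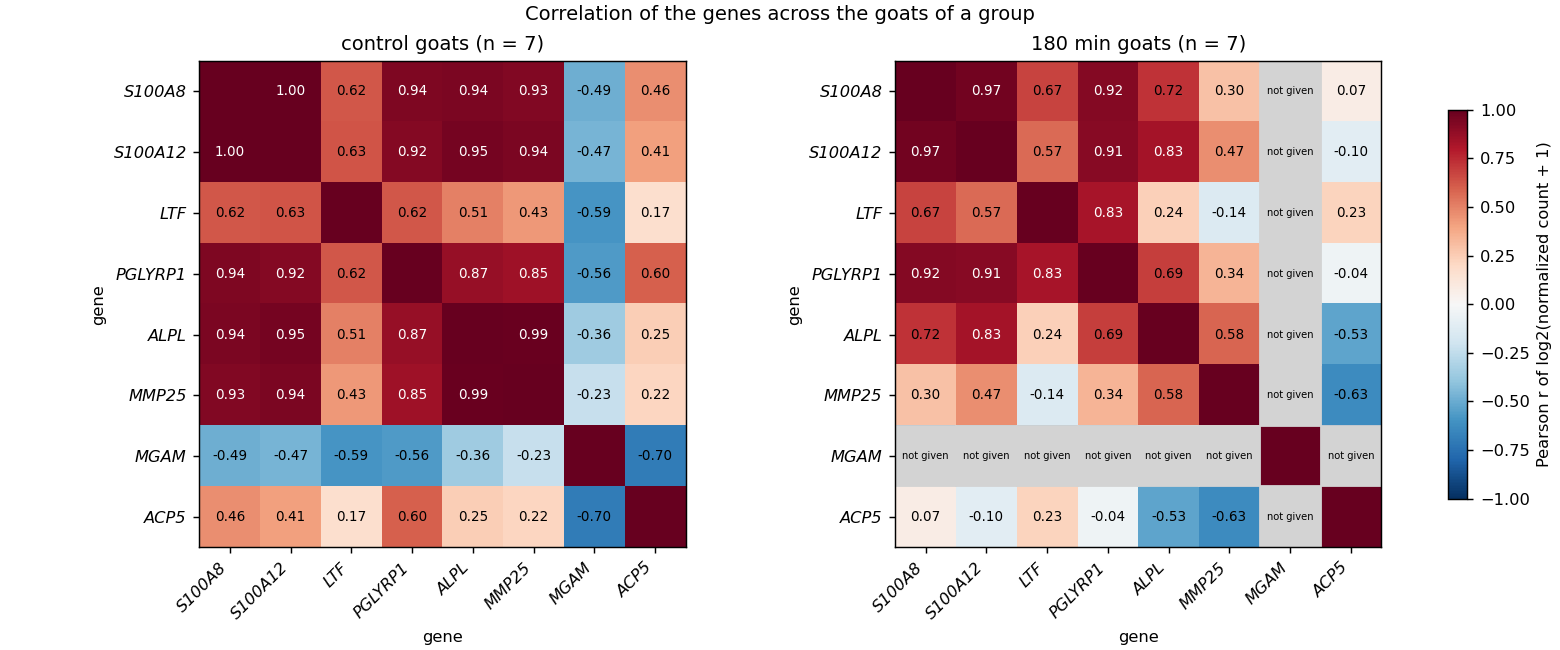
Pearson r between the 8 genes across the 7 control goats (left) and the 7 goats transported for 180 min (right), on log2(normalized count + 1), with colour from -1 (blue) to 1 (red). The 6 genes that rose have a median r of 0.92 in control goats and of 0.67 at 180 min, where LTF has r of -0.14 with MMP25 and 0.24 with ALPL; r with MGAM is not given at 180 min, where its values form separate sets.

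MGAM and ACP5 ran in opposite directions among control goats. Across these 7 goats r was -0.70 and rho was -0.93 (exact permutation p adjusted over 56 correlations 0.225 for r and 0.0343 for rho), and r was -0.92 without goats 7 and 9. Goat 9, with no MGAM read, had the second highest ACP5 (3966 normalized counts), and goat 7, with the most MGAM, had the lowest. At 180 min goat 15, with the most MGAM, had the lowest ACP5 (854 normalized counts), but the relation over all 7 goats did not pass after adjustment (exact permutation p adjusted over 56 correlations 0.0844 for r and 0.106 for rho). With MGAM in separate sets of 3 and 4 goats, no r over all 7 is given, and the sets are too small to test within.

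**Figure D5:**
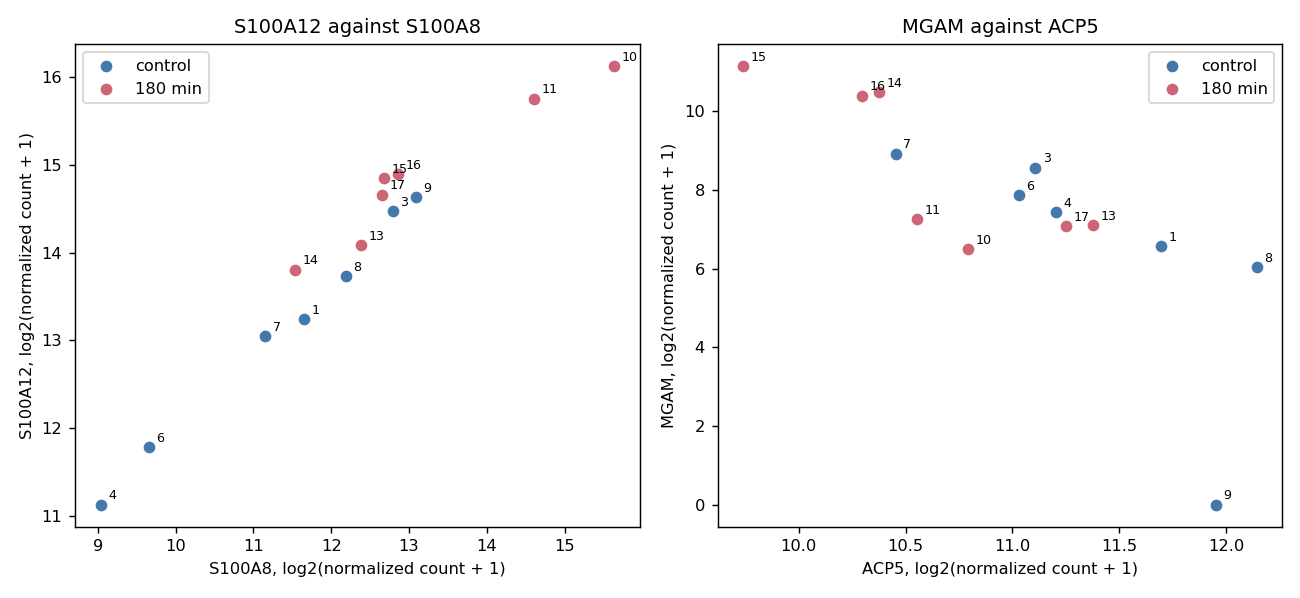
S100A12 against S100A8 (left) and MGAM against ACP5 (right) in single goats, on log2(normalized count + 1), for control (blue) and 180 min goats (red) with their numbers. The S100 genes rank the goats alike in each group (rho 1.00), and goat 15 has the most MGAM and the least ACP5.

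The same animals led several genes. Goat 9 was the highest control goat, and goat 10 the highest 180 min goat, for S100A8, S100A12, LTF and PGLYRP1. Goat 3 was the highest control goat for ALPL and MMP25, and goat 4 the lowest of its group for 5 of the 8 genes. Goat 10 had the smallest library of its group (11290309 reads) and carried 26.2% of it on listed genes, against 7.93 to 14.3% in the other 180 min goats. The part of depth in these levels was not tested. Without goat 10, LTF (2.08), PGLYRP1 (2.06), ALPL (3.82), MMP25 (1.36) and S100A12 (1.53) kept positive log2 differences that limma still called.

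Among the other listed genes, the 5 most like the mean of the 8 standardized genes over the 14 goats, after each group's mean was subtracted, were NFE2 (r = 0.934), CRYL1 (0.930), ZNF467 (0.923), DEDD2 (0.922) and AP5B1 (0.922). NFE2 is a transcription factor of blood-forming cells. All 5 were called higher at 180 min, by 0.88 to 1.48 on the log2 scale, against 36.8% of all listed genes. They were picked for their likeness to a mean in which most genes rose, so this count is no separate result. Against the mean of the other 7 genes, r was 0.9751 for S100A12, 0.933 for S100A8, 0.916 for PGLYRP1, 0.850 for ALPL, 0.727 for MMP25, 0.507 for LTF and 0.018 for ACP5. For MGAM, whose 180 min values form separate sets, it was -0.560. These r are descriptions over goats that share libraries with every gene compared. By the same measure, the other listed gene most like each of the 8 was looked up after the values were seen. It was UBE2L6 for S100A8 (r = 0.960), CRYL1 for S100A12 (0.940), S100A2 for LTF (0.778) and AP5B1 for PGLYRP1 (0.967). For ALPL it was FGR (0.948), for MMP25 SDS (0.954), for MGAM CACNB2 and for ACP5 LTB, the cytokine lymphotoxin beta (0.889). LTB was called lower at 180 min, with a log2 difference of -0.79 (SE 0.33), as were 25.6% of all listed genes. What these likenesses come from was not tested.

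Of 36 other granule genes on a list, 5 are listed at 180 min and 4 of them were called higher, against 36.8% of all listed genes. CHI3L1, a chitinase-like protein of secondary granules, was at 6044 ± 3471 and 14313 ± 11824 normalized counts in control and 180 min goats (SD, n = 7 each; log2 difference 1.13, SE 0.46). TCN1, the vitamin B12 carrier of secondary granules, differed by 1.65 (SE 0.62), PGLYRP4, a relative of PGLYRP1, by 2.08 (SE 0.70) and the arginase ARG2 by 0.99 (SE 0.36). BPI, an antibacterial protein of primary granules, was not called (0.46, SE 0.83). At 30 min 1 of the 36, SRGN, the proteoglycan core of granules, is listed. It was called higher (0.95, SE 0.30), as were 93 of the 430 listed genes.

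Of 16 other surface enzymes, 4 are listed at 180 min, where 36.8% of all listed genes were called higher and 25.6% lower. VNN1, a pantetheinase, was called higher (1.90, SE 0.50) and ENPP1, a nucleotide pyrophosphatase with few reads, lower (-1.44, SE 0.67). VNN2 (0.71, SE 0.40) and BST1 (1.23, SE 1.07) were not called. At 30 min 2 of the 16 are listed and both were called higher, as were 93 of the 430 listed genes. VNN1 differed by 1.24 (SE 0.37) and BST1 by 2.23 (SE 0.80). None of 7 further acid and alkaline phosphatases is listed at either time. Of other S100 genes, S100A4 and S100A2 at 180 min and S100A13 at 30 min are listed and none was called.

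Of 16 neutrophil surface receptors, 4 are listed at 180 min, where 36.8% of all listed genes were called higher. IL1R2, the decoy receptor for interleukin-1, was called higher (4.57, SE 0.69), as were the complement receptor C5AR1 (1.49, SE 0.36) and CSF3R (0.90, SE 0.29), and PTAFR was not (0.79, SE 0.69). At 30 min PTAFR was called higher, by 1.11 (SE 0.36), and so was C5AR1, by 0.87 (SE 0.30).

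As a check of the cell type, CSF3R, the receptor for granulocyte colony-stimulating factor, was the only one of 10 neutrophil markers listed, at 15016 to 47222 normalized counts in control goats and 36948 to 61077 at 180 min. The other 9 have no value here, so this list of neutrophil markers gives no further check. At 180 min all 3 listed of 8 monocyte markers (CD14, CD163 and CSF1R) were called higher, with a summed level of 3052 to 10453 normalized counts in control goats and 9216 to 31348 at 180 min. Of 12 T cell markers 6 are listed, with sums of 8064 to 15344 and 4449 to 9019. Of these, 5 were called lower (CD3D, CD3E, CD5, CD6 and LCK) and CD3G was not. Among all genes listed at 180 min, 36.8% were called higher and 25.6% lower. MS4A1, the 1 of 10 B cell markers listed at 180 min, was called lower (3759 to 5196 and 1635 to 4769), and NKG7, a granule protein and the 1 of 8 natural killer cell markers listed at 180 min, was called higher (1053 to 2252 and 1992 to 3305). At 30 min 4 B cell markers (BLK, CD79A, CD79B and MS4A1) and the natural killer cell marker NCR3 are listed. None of them was called, against 46.0% of all listed genes. No listed marker of these lists was at 0 in any goat, and none of 7 eosinophil, 9 red cell or 7 platelet markers is listed. The part of these cell types in the levels of the 8 genes was not tested.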

How the data were processed

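Globin mRNA was removed from blood RNA and poly-A RNA was sequenced in pairs with a kit that does not mark strand. Per the study's methods, fastp removed adapters and poor reads, and HISAT2 was the aligner. The genome build, the counting tool and its treatment of reads shared between related genes are not given in the sources used here. The deposited read counts are whole numbers per gene. The deposited normalized counts, the signal tested here, are those counts divided by 1 size factor per goat, set by the authors for each comparison, with edgeR's TMM and DESeq2 both named in their methods and the origin of the factors not given. The deposited FPKM divide the counts by gene length and by 1 effective library size per goat. The deposited p-values of the authors were read only to state which genes are listed, and their fold changes and adjusted p-values were not used.

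The 8 genes and all gene lists were chosen with earlier results of these data known. Beside the 8 genes, listed genes of these lists and the 5 genes most like the mean of the 8 are named. The genes most like each single gene, LTB among them, were named after their values were seen. limma 3.58.1 (R 4.3.3) was fitted to log2(normalized count + 1) of all listed genes of a table, called at an unadjusted p under 0.05, with Benjamini-Hochberg adjustment over the listed genes. Fold changes on this scale understate low genes. limma stood in for a count test as the main test because library factors and dispersions cannot be fitted over genes that are not listed. Exact permutation tests and correlations over 7 goats were two-sided (SciPy 1.17.1), and 56 correlations, 28 per group, were adjusted together. The smallest p that 7 against 7 goats allow is 0.000583, and 4 against 7 allow 0.00303. edgeR 4.0.16, DESeq2 1.42.0, other scalings and leaving out each goat were alternatives. The fits were tested on simulated data. Replicates are separate goats, and no 2 goats had equal counts in more than 0.784% of listed genes. Of the 8 names, 7 were found in the RefSeq gene table, which has no S100A12 on chromosome 3. No batch or day is given in the labels, so no batch term was fitted. Not every listed gene of the lists is reported here.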

Additional observations from a re-analysis of the deposited data

Results flagged for a closer look

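In 17 groups of goats, 1 for each gene and group, the gap of the highest or lowest goat to its neighbour was set against the group's range, and in 3 of them the highest goat, goat 9 or goat 10, stood far from the others by Dixon's criterion, which flags about 1 group in 20 by chance where values are normal. The normalized counts are skewed. Goat 9 had 1093 normalized counts of LTF, against 463 in the next control goat, a gap of 0.598 of the range. Goat 10 had 5362 normalized counts of LTF, against 1147 in the next 180 min goat, a gap of 0.901 of the range. Goat 10 also had 32974 normalized counts of PGLYRP1, against 7948 in the next, a gap of 0.830 of the range. On the log2(normalized count + 1) scale the gaps were 0.260 for goat 9 in LTF, which no longer passed, 0.7501 for goat 10 in LTF and 0.578 for goat 10 in PGLYRP1, and goat 9, with 0 reads of MGAM, stood apart below the other control goats (0.677).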

How the results depend on the processing

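LTF, PGLYRP1, ALPL, MMP25 and S100A12 kept their direction and their call at 180 min under every alternative run, with log2 differences of 1.67 to 2.86 for LTF, 2.01 to 2.72 for PGLYRP1, 3.14 to 4.52 for ALPL, 0.91 to 1.57 for MMP25 and 1.13 to 1.98 for S100A12. Both edgeR with TMM and DESeq2 gave 1.67 for LTF, and DESeq2 replaced the LTF counts of goats 10 and 9 as outliers. Of the 8 genes, 5 to 8 were called at 180 min. At 30 min the count of called genes was 0 with limma and 1 (ACP5) with edgeR on the deposited size factors, with DESeq2 and without control goat 7, so that leaving out single goats gave 0 to 1. ACP5 at 180 min minus 30 min ran from -0.26 to 0.05 with single goats left out and was above 0 (0.046) only without goat 15. MGAM ran from 1.00 to 2.49 with single goats left out. The median r over all 28 pairs, those with MGAM included, was 0.24 at 180 min, and -0.038 to 0.29 with single goats left out, the lowest without goat 10. In control goats it was 0.55, and 0.37 to 0.71. At 180 min DESeq2 called 727 listed genes higher and 485 lower. At 30 min edgeR with deposited size factors called 111 higher and 193 lower, DESeq2 124 and 269, limma 93 and 105, and median centring 126 and 22. Without goat 21 the 30 min counts were 51 and 58, and without goat 24 they were 58 and 47. The causes of these changes were not tested. No paired analysis was possible because the goats of the groups carry different numbers.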
